A study of Mus musculus with 2 samples.

Results

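Mitosis and kinetochore genes were followed across single microglia of the demyelinated corpus callosum, as a set of 36 genes among the 27998 gene rows of the count tables. The genes were taken by symbol, and each of the 36 members was found on exactly 1 row. One library came from microglia of the medial corpus callosum and the other from microglia of the lateral corpus callosum, with no replicate of either. All mice, of strain C57Bl6 and labelled with the genotype CX3CR1, had been on cuprizone for 4 weeks. This copper-binding agent, given in the diet, kills oligodendrocytes and so strips myelin. Neither library comes from mice without cuprizone. The labels do not state the CX3CR1 allele, the number of mice or the sorting gate. Cells were barcodes with at least 2400 unique molecular identifiers (UMIs) and at most 10% mitochondrial UMIs, which left 2131 medial and 2308 lateral cells. A level is given in CPM, the UMIs of a gene scaled to a total of 1000000 UMIs over all cells of its library and not divided by gene length, and a ratio is medial over lateral on the log2 scale. With 1 library per region there is no test between regions, and every interval is a 95% interval that covers counting error only.

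A dividing cell copies its DNA in S phase, condenses and attaches its chromosomes to a spindle through kinetochores, splits them at anaphase and separates the daughters by cytokinesis. The kinases CDK1, PLK1 and Aurora drive these steps, the spindle checkpoint holds anaphase until all chromosomes are attached, and the anaphase-promoting complex then destroys cyclin B and securin. Transcripts of these genes build up from late S phase to mitosis and are low in resting cells. Microglia, the resident macrophages of the brain, divide little in the healthy adult brain and are known to multiply after demyelination.

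The medial and lateral cells had medians of 10732 and 9694 UMIs and of 2789 and 2643.5 genes, and the 8 microglia markers summed to 251 and 254 UMIs per 10000. No marker list of another cell class exceeded 1.14 UMIs per 10000 in medial cells and 0.984 in lateral cells, both for endothelial markers. Scrublet, a doublet caller, marked 6 medial cells (0.282%) and 3 lateral cells (0.130%), of which 1 medial and 2 lateral cells held at least 5 members. Doublets were left in, and a pair of microglia in 1 droplet counts as 1 cell. The libraries shared 7 cell barcodes. Free RNA was read from barcodes with fewer than 100 UMIs, and no cell class that should lack the members was present to measure their background within cells.

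Many promoters of this gene class are known to carry a short element called the cell cycle genes homology region (CHR), read by the DREAM and MuvB complexes, beside CCAAT boxes bound by the factor NF-Y. RefSeq promoters of GRCm38.p6, from 250 bases before to 50 after the start, were at hand for 30 of the 36 members, which leaves out Smc4, Ccna2, Aurkb, Pbk, Tpx2 and Kif20a. The CHR letters TTTGAA, or TTCAAA for the other strand, stood in 22 of the 30 (73.3%), against 18.1% of the first promoters of 27025 genes. The CCAAT letters, or ATTGG for the other strand, stood in 23 of the 30 (76.7%), against 37.9% of those genes. Both stood in 19 of the 30 (63.3%), against 7.12%. For each group of members by role, the promoter printed is that of the member with most UMIs among those with the CHR letters, from 5′ to 3′ on the gene's own strand, with both motifs in capitals.
Top2a: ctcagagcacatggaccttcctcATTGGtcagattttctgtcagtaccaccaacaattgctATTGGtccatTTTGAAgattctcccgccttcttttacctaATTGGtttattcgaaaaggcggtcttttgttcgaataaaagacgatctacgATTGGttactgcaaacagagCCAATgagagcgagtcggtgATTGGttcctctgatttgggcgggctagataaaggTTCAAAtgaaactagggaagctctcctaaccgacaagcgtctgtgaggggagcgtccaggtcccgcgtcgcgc
Cks1b: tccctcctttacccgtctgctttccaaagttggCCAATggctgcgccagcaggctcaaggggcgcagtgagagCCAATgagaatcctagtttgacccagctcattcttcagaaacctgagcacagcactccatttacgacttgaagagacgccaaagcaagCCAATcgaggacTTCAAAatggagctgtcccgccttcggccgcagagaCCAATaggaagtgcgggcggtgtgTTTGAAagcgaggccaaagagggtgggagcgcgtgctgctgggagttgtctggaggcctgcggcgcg
Cdca8: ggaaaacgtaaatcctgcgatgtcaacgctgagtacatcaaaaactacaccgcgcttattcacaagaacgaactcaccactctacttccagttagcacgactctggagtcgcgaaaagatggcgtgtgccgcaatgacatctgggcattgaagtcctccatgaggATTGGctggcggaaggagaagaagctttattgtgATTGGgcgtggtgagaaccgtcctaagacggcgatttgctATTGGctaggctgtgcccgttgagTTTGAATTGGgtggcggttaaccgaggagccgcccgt
Ube2c: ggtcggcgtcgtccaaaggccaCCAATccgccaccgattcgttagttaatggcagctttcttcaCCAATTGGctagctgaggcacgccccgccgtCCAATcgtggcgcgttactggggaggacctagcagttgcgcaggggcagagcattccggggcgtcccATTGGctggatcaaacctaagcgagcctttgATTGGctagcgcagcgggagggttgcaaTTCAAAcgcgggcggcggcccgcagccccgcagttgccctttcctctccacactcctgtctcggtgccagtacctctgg
Cenpa: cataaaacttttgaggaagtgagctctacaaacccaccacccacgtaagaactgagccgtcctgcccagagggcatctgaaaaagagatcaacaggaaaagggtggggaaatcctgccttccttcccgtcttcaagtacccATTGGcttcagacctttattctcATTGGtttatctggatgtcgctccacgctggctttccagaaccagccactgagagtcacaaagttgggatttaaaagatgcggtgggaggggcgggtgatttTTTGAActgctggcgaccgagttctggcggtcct
Hmmr: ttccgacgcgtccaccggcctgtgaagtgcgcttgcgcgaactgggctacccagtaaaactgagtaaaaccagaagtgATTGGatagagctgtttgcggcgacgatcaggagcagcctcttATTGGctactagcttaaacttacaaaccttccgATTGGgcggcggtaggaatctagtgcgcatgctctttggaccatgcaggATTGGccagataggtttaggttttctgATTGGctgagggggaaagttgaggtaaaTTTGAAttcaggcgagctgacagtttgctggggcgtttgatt
Prc1: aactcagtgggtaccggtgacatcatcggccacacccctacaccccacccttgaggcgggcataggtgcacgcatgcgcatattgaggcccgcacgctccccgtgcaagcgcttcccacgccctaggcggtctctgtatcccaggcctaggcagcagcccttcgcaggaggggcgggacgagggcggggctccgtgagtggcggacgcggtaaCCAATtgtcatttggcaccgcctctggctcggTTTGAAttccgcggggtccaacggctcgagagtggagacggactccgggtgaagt
These windows lie at chr11:99024140-99024439 (Top2a, minus strand), chr3:89418242-89418541 (Cks1b, minus), chr4:124936868-124937167 (Cdca8, minus), chr2:164769679-164769978 (Ube2c, plus), chr5:30666636-30666935 (Cenpa, plus), chr11:40733388-40733687 (Hmmr, minus) and chr7:80294201-80294500 (Prc1, plus). The CHR letters began 23 bases before the start in Top2a, 17 in Cks1b, 29 in Ube2c and 5 in Prc1, with further copies in Top2a 179 and in Cks1b 77 bases before it. In Cdca8, Cenpa and Hmmr they began at bases 14, 17 and 9 after the start. In Cdca8 the CHR letters and an ATTGG overlap, so that the capitals run together, and in Ube2c a CCAAT and an ATTGG do so. A match of letters is a description of the window and not a bound site.

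The members were found in most cells at 1 or a few UMIs and in a small part of the cells in bulk. At least 1 member UMI was present in 1852 medial cells (86.9%) and 1919 lateral cells (83.1%), with a median of 2 distinct members per cell in both libraries. In medial cells, 279 (13.1%) held none, 1444 (67.8%) held 1 to 4, 222 (10.4%) held 5 to 11, 70 (3.28%) held 12 to 19 and 116 (5.44%) held 20 or more. In lateral cells, 389 (16.9%) held none, 1457 (63.1%) held 1 to 4, 214 (9.27%) held 5 to 11, 92 (3.99%) held 12 to 19 and 156 (6.76%) held 20 or more. The fullest medial cell held 35 of the 36 members, and 2 lateral cells held all 36. The most member UMIs in any cell were 244 among medial and 261 among lateral cells.

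**Figure D1:**
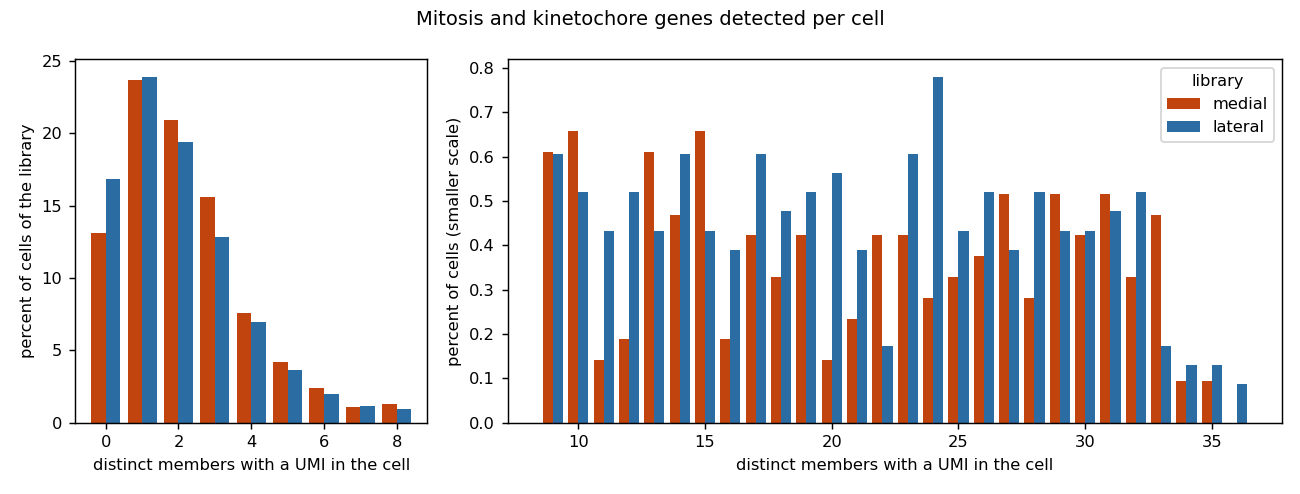
Percent of cells of each library (vertical axis) by the number of distinct mitosis and kinetochore genes with at least 1 UMI in the cell (horizontal axis). Orange bars are medial and blue bars lateral cells, with 0 to 8 genes on the left and 9 to 36 on the right at a smaller scale. Most cells of both libraries stand at 0 to 4 genes, and a low flat tail reaches 35 genes in medial and 36 in lateral cells.

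Cells with at least 20 members were 5.44% of medial cells (4.52 to 6.49) and held 58.7% of all medial member UMIs. In the lateral library they were 6.76% of cells (5.77 to 7.86) and held 63.0%. Cells with at least 12 members, a limit set after the distribution had been seen, made up 186 medial cells (8.73%, 7.56 to 10.0) and 248 lateral cells (10.7%, 9.51 to 12.1), with 69.2% and 75.2% of the member UMIs. Cells with at least 5 members made up 408 medial cells (19.1%, 17.5 to 20.9) and 462 lateral cells (20.02%, 18.4 to 21.7), with 80.1% and 84.1%. The limit of 5 does not fall in a gap: 161 cells of each library held 4 members, and 90 medial and 84 lateral cells held 5.

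Depth entered these shares. The median UMI total was 13703 in medial cells with at least 5 members and 10234 in the other medial cells, and 12262 and 9171 in the lateral library. With every cell thinned to 2400 UMIs, which left out no cell, at least 5 members were found in 7.93% of medial cells (6.82 to 9.16) and 10.5% of lateral cells (9.31 to 11.9). At least 12 were then found in 1.97% and 2.99%. The intervals of the medial and lateral shares overlap at deposited depth for 3, 5, 8, 12 and 20 members. After thinning they overlap for 3 and 12 members and do not for 5 and 8. A limit of at least 3 members turned the order at deposited depth, with 42.3% of medial and 39.8% of lateral cells, while after thinning it gave 11.8% and 14.6%.

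The 36 members summed to 19296 UMIs (823 CPM) in medial cells and 22910 UMIs (994 CPM) in lateral cells, a log2 ratio of -0.27 (-0.30 to -0.24). All 36 passed the minimum of 30 UMIs over both libraries. The median member had a log2 ratio of -0.33, while the median of all 11326 genes with at least 30 UMIs was -0.03 and their central 95% ran from -0.51 to 0.65. Lower in the medial library by more than 1.2-fold were 25 of the 36 members (69.4%), against 10.1% of all genes, and higher by more than 1.2-fold were 0 of 36, against 10.6% of all genes. Among the 7261 genes within the members' range of UMIs, 6.29% were lower and 5.78% higher by that fold. The interval lay wholly below a ratio of 1 for 28 members and included 1 for 8, which were Cks2, Aurkb, Pbk, Nuf2, Kif11, Nusap1, Prc1 and Kif23. The share of all genes with an interval wholly below 1 was not counted, and an interval narrows with more UMIs. The 28 are therefore not set against a background. Of the 8 members whose interval included 1, Aurkb, Nuf2, Kif11 and Kif23 joined Cks2 above 0 when each cell was thinned to 2400 UMIs. Aurkb, Nuf2 and Kif23 then passed 1.2-fold. Thinning was a single random draw, its ratios carry no interval, and few UMIs were left. Nuf2, for example, was then found in 1.60% of medial and 1.17% of lateral cells. In thinned cells 13.4% of all genes were higher by that fold. The members share their cells, so these 36 ratios do not measure 36 separate things. The intervals treat UMIs as separate draws, although 116 medial and 156 lateral cells held 58.7% and 63.0% of the member UMIs. The sampling of those cells is not in the intervals, which are too narrow in that respect. Barcodes under 100 UMIs belong to the same 2 libraries and are not a separate observation of the regions. There the members summed to 942 CPM in the medial and 1083 CPM in the lateral library, a log2 ratio of -0.20 (-0.26 to -0.14). In barcodes with 100 to 2399 UMIs they summed to 757 CPM (699 to 818) and 801 CPM (738 to 869), and these intervals overlap.

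**Figure D2:**
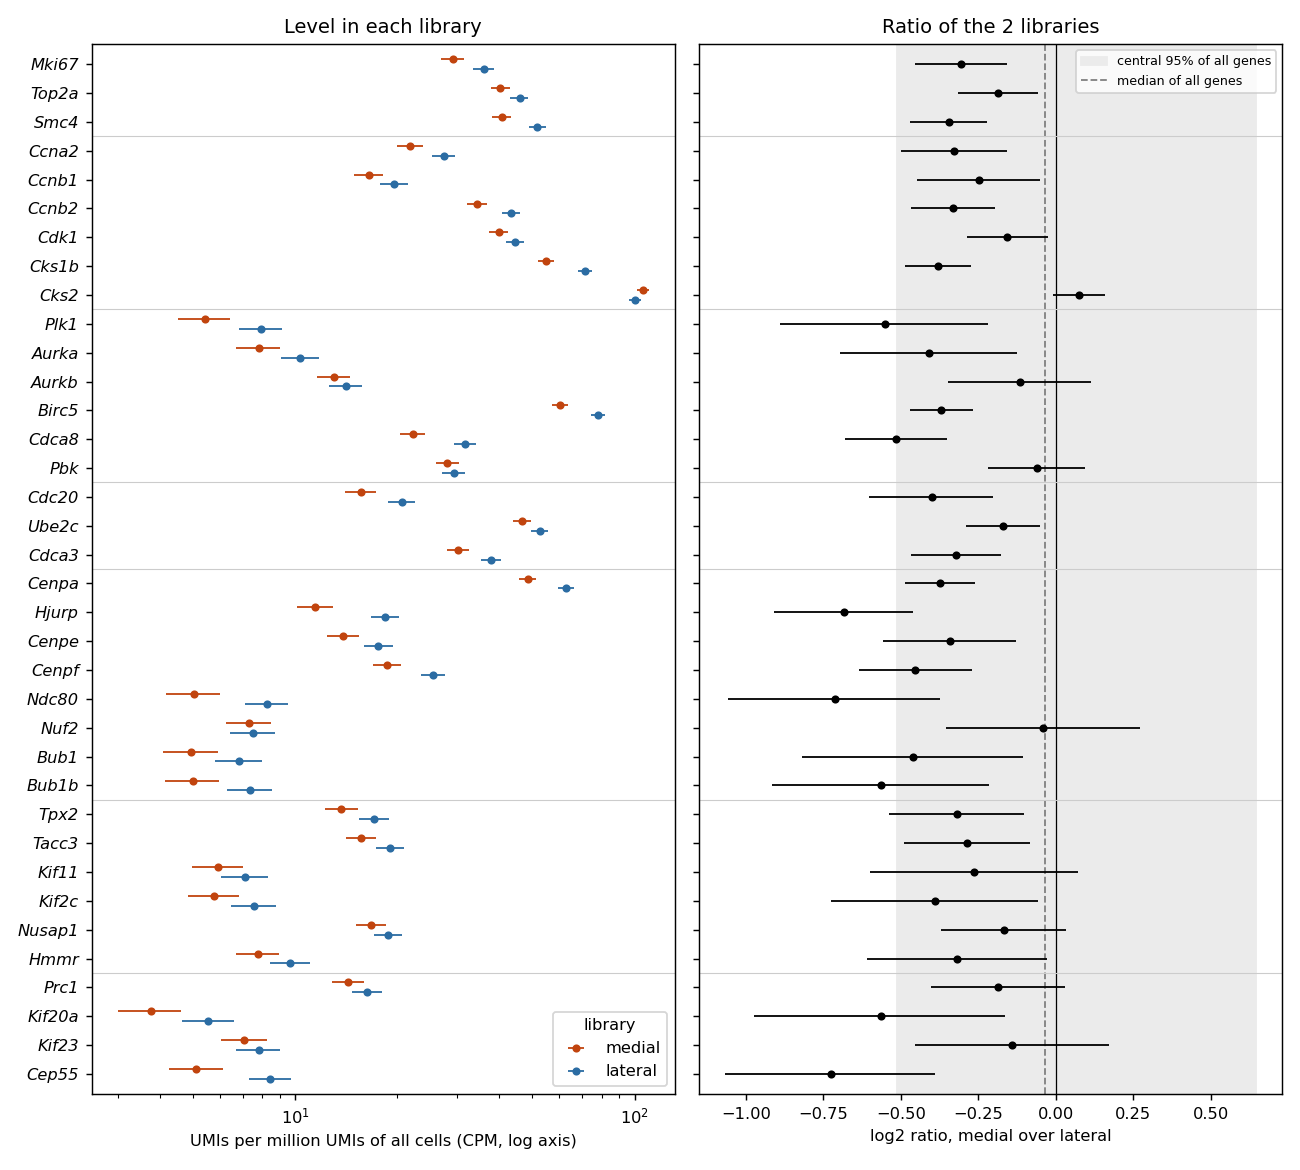
Left, level of each member in CPM (log axis) in medial cells (orange) and lateral cells (blue), grouped by role; right, log2 ratio of medial over lateral. Bars are 95% intervals for counting error in 1 library per region, the shaded band is the central 95% of all genes and the dashed line their median. The ratios of 35 of the 36 members lie below 0 and Cks2 lies at 0.07, although Aurkb, Nuf2, Kif11 and Kif23 turned above 0 in a single draw of thinned cells.

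Among the 3 genes of chromosome structure, Mki67, which coats mitotic chromosomes and is the common marker of cycling cells, had 682 UMIs (29.1 CPM) in medial and 828 UMIs (35.9 CPM) in lateral cells, a log2 ratio of -0.30 (-0.45 to -0.16). It was found in 286 medial cells (13.4%) and 319 lateral cells (13.8%), with up to 10 and 12 UMIs in a cell. Top2a, the topoisomerase that untangles sister DNA (chr11:98992943-99024189), had 944 UMIs (40.3 CPM) and 1056 UMIs (45.8 CPM), a log2 ratio of -0.19 (-0.31 to -0.06). Smc4, an ATPase subunit of condensin, had 953 UMIs (40.7 CPM) and 1190 UMIs (51.6 CPM), a log2 ratio of -0.34 (-0.47 to -0.22). The counting intervals of the medial and lateral levels did not overlap for these genes, with the medial level the lower each time. Condensin also has duties outside mitosis, and Smc4 was found in 9.12% of medial and 7.38% of lateral cells that held no other member, against 4.78% and 2.99% for Mki67.

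The cyclin group of 6, with CDK1, its cyclins and the small CKS proteins that bind it, summed to 273 CPM in medial and 307 CPM in lateral cells, a log2 ratio of -0.17 (-0.22 to -0.12). Cdk1, the mitotic kinase itself (chr10:69335146-69352938), had 934 UMIs (39.8 CPM) and 1023 UMIs (44.4 CPM), a log2 ratio of -0.16 (-0.29 to -0.03). Ccnb1, the cyclin B1 that activates it, had 386 UMIs (16.5 CPM) and 451 UMIs (19.6 CPM), a log2 ratio of -0.25 (-0.45 to -0.05). Ccna2 and Ccnb2, the cyclins A2 and B2, had log2 ratios of -0.33 each. Of Ccnb1's 57-base windows, taken over whole transcripts, 22.1% also occur in other annotated genes, among them its pseudogene Ccnb1-ps. Its UMIs may be less certain for that, but whether the 3' part read in these libraries is shared was not examined.

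The CKS pair differed. Cks1b (chr3:89415472-89418383) had 1289 UMIs (55.0 CPM) in medial and 1649 UMIs (71.5 CPM) in lateral cells, a log2 ratio of -0.38 (-0.49 to -0.27). Cks2 (chr13:51645232-51650660) had 2478 UMIs (106 CPM) and 2313 UMIs (100.4 CPM), a log2 ratio of 0.07 (-0.01 to 0.16), so it was the 1 member not lower in the medial library at deposited depth. Their intervals do not overlap. Cks2 was found in 1079 medial cells (50.6%) and 1083 lateral cells (46.9%), Cks1b in 569 (26.7%) and 663 (28.7%). Of the 57-base windows of Cks2, 28.9% occur in other annotated gene models as well, against 3.02% for Cks1b. These windows too cover whole transcripts and not the 3' part alone.

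Mitotic kinases and the chromosomal passenger complex, 6 genes, summed to 137 CPM in medial and 171 CPM in lateral cells, a log2 ratio of -0.32 (-0.39 to -0.26). Birc5, the passenger subunit survivin (chr11:117849251-117855743), had 1414 UMIs (60.3 CPM) and 1796 UMIs (77.9 CPM), a log2 ratio of -0.37 (-0.47 to -0.27). Its partner Cdca8, or borealin, had 520 UMIs (22.2 CPM) and 731 UMIs (31.7 CPM), a log2 ratio of -0.52 (-0.68 to -0.35). Their kinase Aurkb had 305 UMIs (13.01 CPM) and 325 UMIs (14.1 CPM), a log2 ratio of -0.12 (-0.35 to 0.11). Its interval includes a ratio of 1 and overlaps that of Birc5, while it narrowly fails to overlap that of Cdca8. Plk1, the polo kinase of mitotic entry and spindle assembly, had 127 UMIs (5.42 CPM) and 183 UMIs (7.94 CPM), a log2 ratio of -0.55 (-0.89 to -0.22). Aurka, the Aurora kinase of the spindle poles, had a log2 ratio of -0.41 (-0.70 to -0.13). Pbk, a mitotic kinase that CDK1 activates, had 658 UMIs (28.1 CPM) and 675 UMIs (29.3 CPM), with a ratio near 1.

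The group of the anaphase-promoting complex and ubiquitin-related genes, 3 in number, summed to 92.5 CPM in medial and 111 CPM in lateral cells, a log2 ratio of -0.26 (-0.35 to -0.18). Ube2c, the ubiquitin-conjugating enzyme that works with the complex (chr2:164769898-164778822), had 1094 UMIs (46.7 CPM) and 1211 UMIs (52.5 CPM), a log2 ratio of -0.17 (-0.29 to -0.05). No other member reached as many UMIs in a single cell, with 35 in a medial and 32 in a lateral cell. Cdc20, the activator that the spindle checkpoint restrains, had 366 UMIs (15.6 CPM) and 475 UMIs (20.6 CPM), a log2 ratio of -0.40 (-0.60 to -0.20). Cdca3, a ubiquitin ligase adaptor needed for mitotic entry, had a log2 ratio of -0.32 (-0.47 to -0.18).

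The 8 centromere, kinetochore and checkpoint genes summed to 115 CPM in medial and 154 CPM in lateral cells, and their log2 ratio of -0.43 (-0.50 to -0.35) was the lowest of the 7 role groups. Of these genes, 7 were lower by more than 1.2-fold, against 10.1% of all genes. Cenpa, the histone H3 variant that marks centromeres (chr5:30666777-30674830), had 1137 UMIs (48.5 CPM) and 1449 UMIs (62.9 CPM), a log2 ratio of -0.37 (-0.49 to -0.26). Hjurp, the chaperone that loads it, had 269 UMIs (11.5 CPM) and 425 UMIs (18.4 CPM), a log2 ratio of -0.68 (-0.91 to -0.46). Of the microtubule-binding NDC80 complex, the members Ndc80 and Nuf2 gave unlike values. Ndc80 had 118 UMIs (5.03 CPM) and 190 UMIs (8.24 CPM), a log2 ratio of -0.71 (-1.06 to -0.37). Nuf2 had 171 UMIs (7.29 CPM) and 173 UMIs (7.51 CPM), a log2 ratio of -0.04 (-0.35 to 0.27), and the intervals of the pair narrowly fail to overlap. Spc24 and Spc25, genes of the same complex outside the members, lay between them. Their log2 ratios were -0.24 (-0.44 to -0.04) and -0.19 (-0.38 to -0.01). The kinetochore motor Cenpe, the large corona protein gene Cenpf and the spindle checkpoint genes Bub1 and Bub1b had log2 ratios from -0.34 to -0.56.

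Spindle genes, 6 in number, summed to 65.5 CPM in medial and 79.3 CPM in lateral cells, a log2 ratio of -0.28 (-0.37 to -0.18). Nusap1, which binds and bundles spindle microtubules, had 392 UMIs (16.7 CPM) and 433 UMIs (18.8 CPM), with an interval of -0.37 to 0.03. Kif2c, a kinesin that takes microtubules apart at centromeres, had 135 UMIs (5.76 CPM) and 174 UMIs (7.55 CPM), a log2 ratio of -0.39 (-0.73 to -0.06). Tpx2, the activator of Aurora A, its partner gene Tacc3, the spindle-pole gene Hmmr and the bipolar motor Kif11 had log2 ratios from -0.26 to -0.32. The 4 genes of the midzone and of cytokinesis summed to 30.3 CPM and 38.1 CPM, a log2 ratio of -0.33 (-0.48 to -0.19). Prc1, which bundles the midzone, had 336 UMIs (14.3 CPM) and 376 UMIs (16.3 CPM), with an interval of -0.40 to 0.03. Cep55, which recruits the abscission machinery, had 120 UMIs (5.12 CPM) and 195 UMIs (8.46 CPM), and its log2 ratio of -0.72 (-1.07 to -0.39) was the lowest of the members. The motors Kif20a and Kif23 had 88 and 166 UMIs in medial and 128 and 180 UMIs in lateral cells, and Kif23 is the member of this group with the ratio nearest 1, at -0.14 (-0.45 to 0.17).

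Where a member's UMIs lay was read from the other 35 members, so that its own UMIs did not choose the cells. Since the cells were chosen by genes of the same list, this is a description. Cells with at least 5 others held a median of 87.3% of a member's UMIs in the medial library, from 42.3% to 95.2%, and of 90.8% in the lateral library, from 48.5% to 97.3%. At least 80% lay there in both libraries for 26 of the 36 members. Cells with at least 5 members held 24.6% of all medial and 26.1% of all lateral UMIs, whatever the gene. The highest values were those of Prc1, with 95.2% in medial and 97.1% in lateral cells, of Cenpf, with 94.97% and 95.07%, and of Hmmr, with 92.9% and 97.3%.

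**Figure D3:**
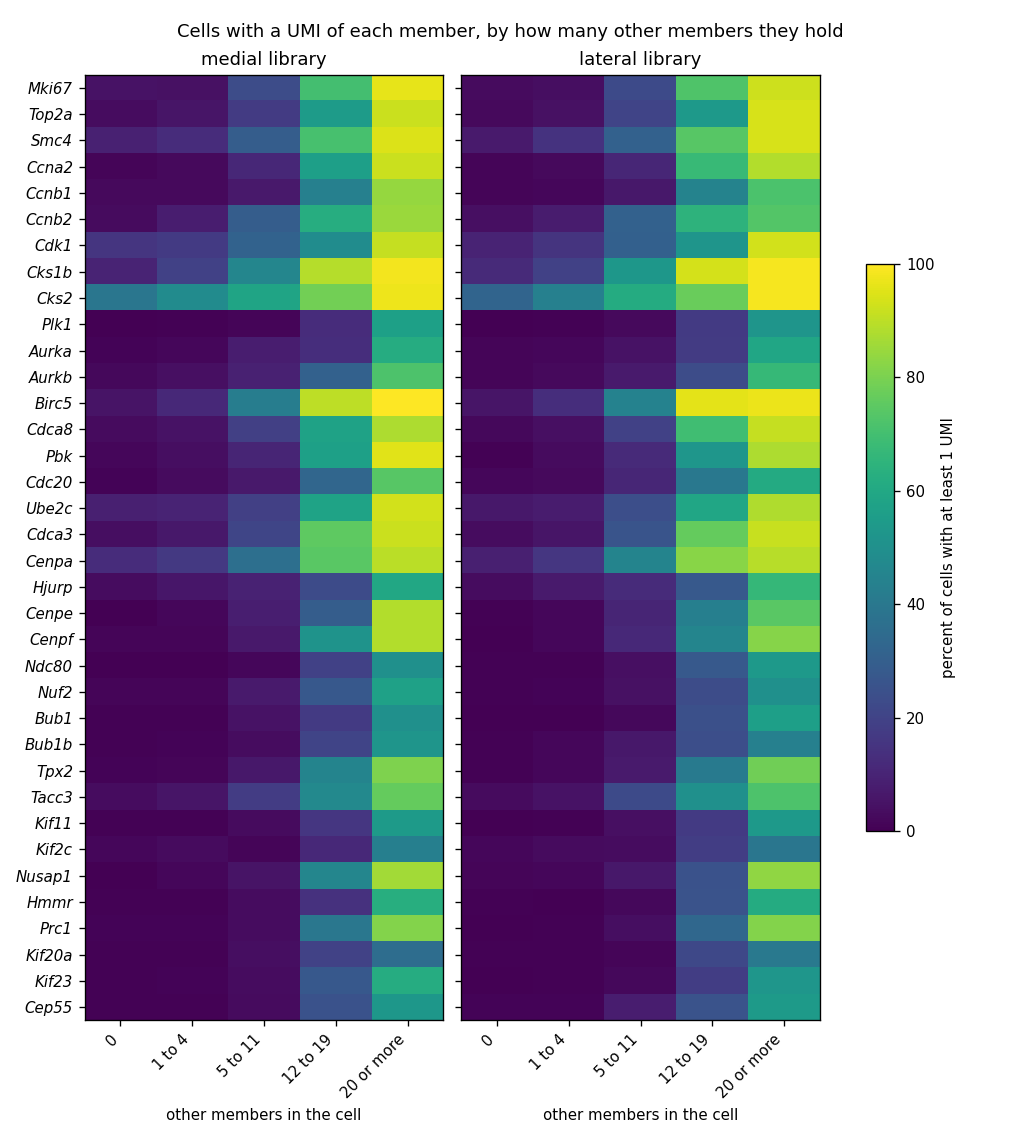
Percent of cells with at least 1 UMI of each member (colour, 0 to 100) by how many of the other members the cell holds (columns), for the medial library on the left and the lateral library on the right. Rows follow the role groups. Most rows are dark up to 11 other members and bright at 20 or more, while Cks2 is found in 39.2% of medial and 32.2% of lateral cells without any other member.

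The percent of cells with a UMI rose at different points along this order, and it depends on how many UMIs a member has. Birc5 had 1414 medial and 1796 lateral UMIs, against 127 and 183 for Plk1. Hmmr had 182 and 223, Cenpe 325 and 405, and Kif20a 88 and 128. Birc5 was already in 90% of medial and 95.7% of lateral cells with 12 to 19 other members, and in 100% and 97.2% of those with 20 or more. Plk1 was in 12.9% and 17.02% of cells with 12 to 19 others, and in 56.9% and 52.3% of those with 20 or more. Hmmr, the hyaluronan-mediated motility receptor of spindle poles, was in 14.1% and 25.5%, then in 62.6% and 61.4%. Cenpe was in 29.6% and 43.3%, then in 88.6% and 74.3%. Kif20a reached 35.7% of medial and 40.3% of lateral cells with 20 or more others. The median depth of the cells also differed, at 10806.5 UMIs in medial and 9444.5 UMIs in lateral cells with 12 to 19 members. In those with 20 or more it was 17263.5 and 15493 UMIs. The parts of depth and of a member's own level in these steps were not tested, so the steps do not give an order of the genes.

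The lowest shares in cells with at least 5 others were those of Cks2, with 42.3% of its medial and 48.5% of its lateral UMIs, then of Hjurp, with 61.3% and 69.6%, of Kif2c, with 61.5% and 70.1%, and of Cdk1, with 63.6% and 71.7%. Cdk1 was found in 51 of 330 medial cells (15.5%) and 43 of 432 lateral cells (9.95%) without any other member. Cenpa was found in 12.5% and 8.69% of such cells, Cks1b in 10% and 11.99%, and Ube2c in 8.82% and 6.27%. The median over the members was 1.59% in medial and 1.52% in lateral cells. Free RNA held all 36 members, at a median of 1.06 times their medial and 1.03 times their lateral CPM in cells, so that 1 UMI in a cell without other members may not be the cell's own. The CPM of Cks2 was 10.7 times that of Birc5 in medial and 5.91 times in lateral cells without other members, against 1.96 and 1.60 times in the free RNA of the same libraries, and the part of free RNA in the levels of these cells was not tested.

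The lower summed level in the medial library was split into the share of member-holding cells and the level within them. In cells with at least 12 members the members summed to 4735 CPM in the medial and 5127 CPM in the lateral library, a log2 ratio of -0.11 (-0.15 to -0.08). The share of such cells had a log2 ratio of -0.30. In the remaining cells the members summed to 288 CPM in both libraries, a log2 ratio of 0.00 (-0.05 to 0.05). The remaining cells are those chosen for few members, which bounds their level. With the limit at 5 members, the share had a log2 ratio of -0.06 and the level in the cells above it -0.26 (-0.29 to -0.23), from 2682 CPM in medial and 3209 CPM in lateral cells. With each cell thinned to 2400 UMIs, the share had log2 ratios of -0.41 at a limit of 5 and -0.60 at a limit of 12, and the level in those cells -0.05 and -0.13. At deposited depth the level thus differed more than the share with the limit at 5 and the share more with the limit at 12, while in thinned cells the share differed more at both. This order is of point values, as the share ratios carry no interval. The intervals of the shares overlap for both limits at deposited depth, and for the limit of 12 in thinned cells. More proliferating cells and more RNA of these genes per proliferating cell are therefore not separated by the summed level alone.

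Other mitosis genes outside the 36 were read as a list of 56. Of these, 25 were lower in the medial library by more than 1.2-fold and 0 higher, against 10.1% and 10.6% of all genes, and their median log2 ratio was -0.24. All 56 had a higher CPM in cells with at least 12 members than in cells with none, in both libraries. Hmgb2, a chromatin protein with the most UMIs of the list, had 672 CPM in medial cells with at least 12 members and 86.8 CPM in those with none, and 600 and 85.9 CPM in the lateral library. Cdc25b, the phosphatase that activates CDK1, had the lowest log2 ratio among genes with at least 100 UMIs, at -0.74, and Kif4, a chromosome-bound kinesin gene, the highest, at 0.26. Cells with at least 5 members held a median of 83.7% of a listed gene's medial and 86.0% of its lateral UMIs. Pttg1, the securin that guards sister chromatids, was lowest with 23.9% and 30.4%, below the share of all UMIs in medial cells and slightly above it in lateral cells.

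S phase genes, 35 in number, were lower in the medial library by more than 1.2-fold for 9 genes and higher for 0, against 10.1% and 10.6% of all genes, with a median log2 ratio of -0.16. All 35 were higher in cells with at least 12 members than in cells with none, in both libraries. Pcna, the sliding clamp of DNA polymerase, had 205 CPM in medial cells with at least 12 members and 33.9 CPM in those with none, and 166 and 31.8 CPM in the lateral library. From cells with no member to those with 1 to 4, 5 to 11, 12 to 19 and 20 or more, the list summed to 285, 342, 990, 2144 and 2249 CPM in the medial and to 276, 377, 1127, 1850 and 2228 CPM in the lateral library. The other mitosis genes summed to 479, 499, 737, 2014 and 3940 CPM, and to 449, 486, 812, 2068 and 4020 CPM. Between the last of these bands the mitosis list differed more than the S phase list in both libraries. Of cells with 20 or more members, 92.2% of the medial and 91.0% of the lateral ones held at least 5 S phase genes. Of the 558 medial and 603 lateral cells with at least 5 S phase genes, 156 (28.0%) and 190 (31.5%) held at least 12 members.

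**Figure D4:**
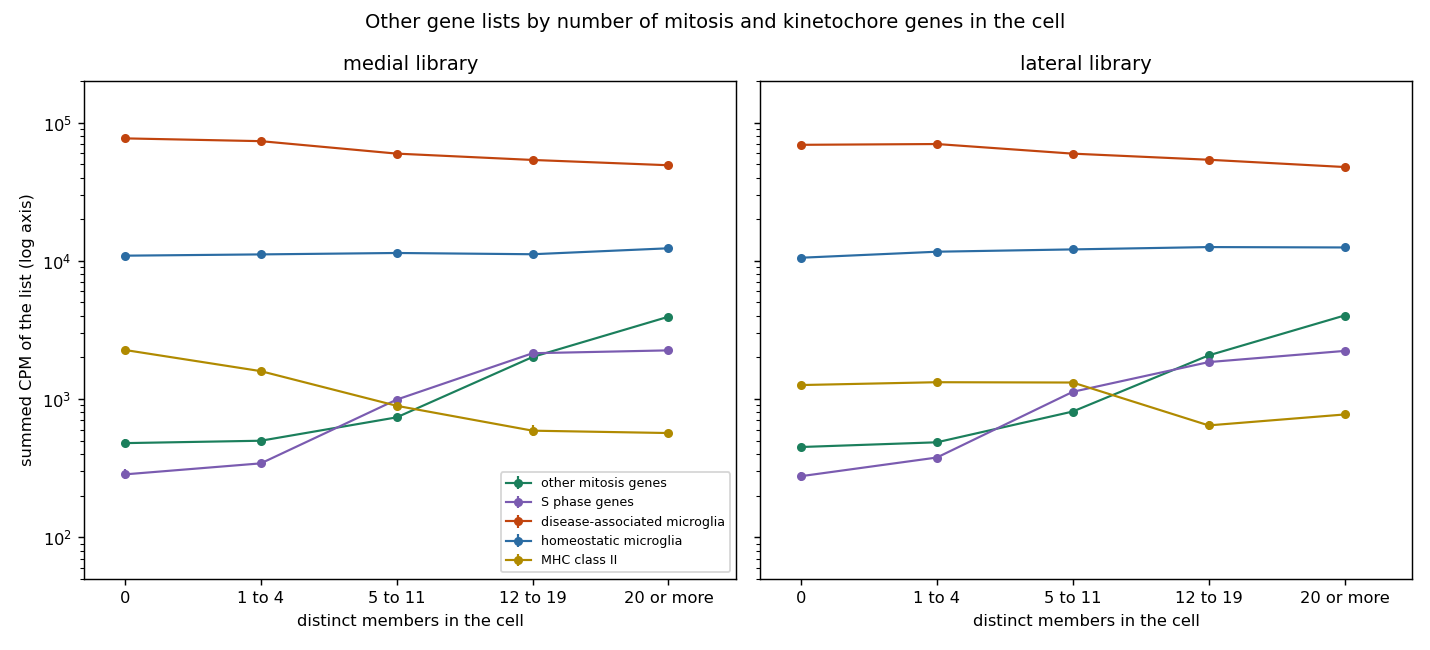
Summed CPM of 5 other gene lists (log axis) by the number of mitosis and kinetochore genes in the cell, in the medial library on the left and the lateral library on the right. Bars, mostly smaller than the points, are 95% Poisson intervals for counting error. Other mitosis and S phase genes are higher in cells with many members, and disease-associated genes are lower there in both libraries.

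Of the 21 genes for CDK inhibitors, G1 cyclins and growth arrest, 1 was lower and 3 were higher in the medial library by more than 1.2-fold, near the 10.1% and 10.6% of all genes. In cells with at least 12 members 16 of the 21 had a higher CPM than in cells with none in the medial library, and 14 of the 21 in the lateral library. Btg1, an antiproliferative gene with the most UMIs of the list, had 806 CPM in medial cells with at least 12 members and 1630 CPM in those with none, and 728 and 1426 CPM in the lateral library, and was among the lower ones. Cdkn1a, the CDK inhibitor p21, was among the higher ones, with 479 and 353 CPM in the medial and 511 and 293 CPM in the lateral library. Lin54, the subunit of MuvB that reads the CHR, had the lowest log2 ratio of the list, at -0.40.

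Cells rich in members carried microglial genes. The 8 microglia markers summed to 238 UMIs per 10000 in medial cells with at least 5 members and 255 in those with none, and to 242 and 247 in the lateral library. All 5 markers of T or NK cells were at 0 UMIs in the cells with at least 5 members of both libraries. Over all cells these markers had only 2 medial UMIs and 1 lateral UMI, so this 0 also says little. Markers of oligodendrocyte precursors, another class known to divide in this tissue, summed to 0.194 and 0.0898 UMIs per 10000 in medial cells with at least 5 members and with none, and to 0.190 and 0.114 in lateral cells. At 20 or more members the sums were 0.249 in medial and 0.252 in lateral cells. In the member-rich cells all of these UMIs, 112 medial and 114 lateral, were of the marker Cspg4. The other 5 of those 6 markers, Pdgfra, Olig1, Olig2, Sox10 and Gpr17, were at 0 UMIs there in both libraries. Over all cells Pdgfra had 0 medial and 2 lateral UMIs, Olig1 1 and 1, Gpr17 0 and 1, and Olig2 and Sox10 had 0. Their 0 in member-rich cells therefore says little about these cells.

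The 14 disease-associated microglia genes summed to 76922, 73441, 59675, 53696 and 49163 CPM from 0 to 20 or more members in the medial library, and to 69098, 70003, 59649, 53885 and 47728 CPM in the lateral library. In cells with at least 12 members 11 of the 14 genes had a lower CPM than in cells with none in the medial library, and 12 of 14 in the lateral library. Apoe, a lipid carrier and the gene of this list with most UMIs, had 31485 and 56221 CPM in the medial and 29955 and 44705 CPM in the lateral library. The homeostatic microglia genes did not follow it, with 12321 CPM at 20 or more members and 10895 CPM at none in medial cells, and 12493 and 10528 CPM in lateral cells. In each library 6 of the 7 MHC class II genes had a lower CPM in cells with at least 12 members than in cells with none, and 5 were lower in both. H2-DMa, a chaperone of peptide loading, had 204 and 233 CPM in the medial library but 235 and 225 CPM in the lateral library, where it was higher, and Ciita was at 0 UMIs in both sets of medial cells. Cd74, the invariant chain, had 141 and 1185 CPM in the medial and 231 and 534 CPM in the lateral library. Shares of a total move together, and a cell's depth differed with its number of members. With every cell thinned to 2400 UMIs the mean of the disease-associated list was 48452 CPM at 20 or more members and 80342 CPM at none in medial cells, and 46314 and 66879 CPM in lateral cells. The cells of these bands were still those chosen at deposited depth. Their medians were 17263.5 and 6305 UMIs in the medial and 15493 and 5462 UMIs in the lateral library. Thinning the list therefore does not remove the choice of cells by depth, and the part of depth was not tested.

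Immediate early genes differed between the libraries as well. These genes, which can respond to tissue dissociation, were higher in the medial library by more than 1.2-fold for 10 of 12 genes, against 10.6% of all genes, with 5885 CPM in medial and 4650 CPM in lateral cells. Their part in the members' ratios was not tested. Mitochondrial UMIs made up 2.23% of the UMIs of the median medial cell and 2.48% of those of the median lateral cell.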

How the data were processed

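Droplet 3' libraries of sorted microglia, 1 medial and 1 lateral, were read as deposited counts: whole numbers of UMIs per gene and barcode, not normalised by the authors. The submitters' processing notes name Cell Ranger 2.0.1 with STAR and the build mm10, per the labels. The sources used here do not name the annotation. Each library listed 737280 barcodes, with 28660496 medial and 27955414 lateral UMIs, of which 81.8% and 82.4% lay in cells. The mitochondrial limit removed 3 barcodes from each. The members and all gene lists were chosen with earlier results of these data known.

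Symbols were matched to rows, and UMIs were summed over cells and scaled to CPM, which is not divided by gene length. Intervals are exact Poisson (CPM), Clopper-Pearson (shares) and conditional binomial (ratios). UMIs are counted molecules, but cells of a library are not replicates. A fold of 1.2 and a minimum of 30 UMIs over both libraries were used for counts of genes. The ratio step was tested on simulated counts. Cells were thinned by a single seeded sampling without replacement. Gene coordinates and 57-base windows came from GENCODE M21 (GRCm38), promoters from RefSeq (GRCm38.p6). All members may be named; values were given for the member with most UMIs and those with the highest and lowest ratio in each role group, the members with the highest and lowest share of UMIs in member-rich cells, and 8 fixed genes. Values of further members and of Pttg1, Spc24 and Spc25 were added after they were seen. From each other list, genes were taken among the 3 with most UMIs and the highest and lowest ratio over at least 100 UMIs. Software was Python 3.11.15, numpy 2.4.6, scipy 1.17.1, pandas 2.3.3, scanpy 1.11.5 (Scrublet) and matplotlib 3.10.9.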

Additional observations from a re-analysis of the deposited data

Results flagged for a closer look

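Member UMIs also stood in barcodes outside the cells, above the limit that a count of 0 allows (3 counts). In barcodes with fewer than 100 UMIs the 36 members summed to 942 CPM in the medial library, where 3 counts are 0.686 CPM, and to 1083 CPM in the lateral library, where they are 0.722 CPM. In barcodes with 100 to 2399 UMIs they summed to 757 CPM in the medial library, where 3 counts are 3.60 CPM, and to 801 CPM in the lateral library, where they are 4.05 CPM. All 36 members had UMIs in each of these sets. In barcodes under 100 UMIs, 23 of the medial and 20 of the lateral member levels had a higher CPM than in cells. The median member stood at 1.06 times its medial and 1.03 times its lateral level in cells. The share of all genes with a higher CPM there was not counted, so these counts are not shown to be particular to the members.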

How the results depend on the processing

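The summed and median ratios of the members stayed below 0 under the alternatives run. Of 288 values of single members over 8 settings, 273 stayed within the member's counting interval and 15 left it, all with cells thinned to 2400 UMIs, and 274 were below 0. Aurkb (0.27), Nuf2 (0.44), Kif11 (0.12) and Kif23 (0.31) were above 0 after thinning, and Nuf2 (0.05) and Kif23 (0.00) with each cell counted alike. The thinned values come from a single random draw that kept few UMIs, and they carry no interval. With at least 3 members per cell the shares were 42.3% medial and 39.8% lateral, with at least 8 they were 11.5% and 13.3%, and with at least 12, added after seeing the data, 8.73% and 10.7%. A minimum of 5000 UMIs per cell gave 22.7% of lateral cells with at least 5 members. Thinning to 2400 UMIs gave 7.93% of medial and 10.5% of lateral cells and a summed log2 ratio of -0.31. It also gave 3 of 36 members higher in the medial library by more than 1.2-fold, against 13.4% of all genes in thinned cells. Centring on the median gene gave a summed log2 ratio of -0.24, and leaving out Cks1b, Cks2, Smc4, Tacc3 and Cenpa gave -0.30. The count of members lower in the medial library by more than 1.2-fold was 23 to 25 in every setting, but the share of all genes moved. It was 10.1% as reported, 17.04% in thinned cells and 8.28% with centring on the median gene. A like count of members is therefore not a like excess over all genes. Leaving out the Scrublet doublets or the barcodes found in both libraries moved none of these results beyond counting error. No paired analysis was possible because each region has 1 library. Members with few UMIs, such as Kif20a with 88 medial and 128 lateral UMIs, are limited by depth, and no setting measures the spread between mice.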
